A study of Homo sapiens with 6 samples.

Results

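A set of 11 protein-coding genes was read in Adriamycin-resistant breast cancer cells and was at or near the counting floor in the parent line. Members were chosen by their measured raw counts. A gene on chromosomes 1 to 22 entered when it held at least 20 reads in each of the 3 resistant libraries and at most 3 in each of the 3 parent libraries. Of 58735 genes in the count table, 19019 were protein-coding genes on these chromosomes and 14 met the count thresholds. SERPINB2, IFNL1 and F2RL3 were left out by name, together with any name beginning ITG, COL, ADAM or ZNF, which left 11. The counts of the members are therefore a description, and no test between the groups is read from them.

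MDA-MB-231 is an established human line of triple-negative breast cancer, a subtype that lacks estrogen receptor, progesterone receptor and HER2 amplification. The parent group (genotype WT in the labels) is the line itself, and the ADRr group (genotype ADR resistant) had been derived from it by stepwise exposure to rising concentrations of Adriamycin (ADR, doxorubicin, an anthracycline that damages DNA) followed by limiting dilution. ADRr is thus a single selected line, and the labels name the same medium for both groups and no drug at harvest. No label says that the 3 libraries of a group came from separate cultures, so p-values measure the spread between these libraries, which may be technical. Time points mentioned in the series text are assigned to no library.

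Total counts ranged from 15983985 to 18272314 per library. VIM, CD44 and AXL, which mark this mesenchymal line, were at 65.7 to 100 FPKM, 81.3 to 147 FPKM and 202 to 327 FPKM, where FPKM is fragments per kilobase of gene, scaled to sequencing depth. The receptor genes ESR1 and PGR held at most 1 read in a library. Leukocyte markers were examined because IL2RB and LTA are best known from lymphocytes. The leukocyte list held 20 genes, of which 15 stayed under 1 CPM (counts scaled to sequencing depth) in every library. CD3D, CD48, SPI1, MS4A1 and TYROBP were among those with no read in any ADRr library. LCP2 (4, 5 and 3 reads) and CD53 (4, 1 and 3) were read in ADRr libraries and in no parent library. CORO1A rose from 44, 33 and 49 reads in parent to 92, 101 and 126 in ADRr libraries. HCLS1 (6, 5 and 16 to 4, 2 and 0) and CSF1R (56, 64 and 83 to 30, 19 and 37) went the other way. The summed level of the list was 64.4 to 71.9 CPM in parent and 97.6 to 104 CPM in ADRr libraries, most of it LAPTM5.

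Most cells keep genes of other lineages silent. Ion channels, water channels and solute carriers set what crosses the plasma membrane, cytokines and their receptor chains carry signals between cells, and D-type cyclins couple such signals to entry into the cell cycle. Drug-selected lines that pass through a single cell can carry the expression state of that cell as well as changes linked to the drug, and in this design the 2 sources cannot be told apart. In bulk RNA, a few cells with many transcripts and many cells with few transcripts cannot be told apart.

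The members were spread over 7 chromosomes. Chromosome 22 held 3 (SLC7A4, IL2RB and KLHDC7B), whereas it carries 2.32% of the eligible genes. Chromosomes 8 (FER1L6, NECAB1) and 12 (AQP5, CCND2) held 2 each, and chromosomes 3, 6, 17 and 20 held 1 each. Members on the same chromosome were more than 1 Mb apart. Grouped by role after the members were known, 5 encode channels or transporters (AQP5, KCNK15, TRPV3, SLC7A4 and SLCO2A1), 2 a cytokine or receptor chain (IL2RB and LTA), 1 a cyclin (CCND2) and 3 other proteins (FER1L6, NECAB1 and KLHDC7B).

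RefSeq promoter windows (GRCh38.p14) matched 4 of the 11 members by symbol, which is 36.4% and too few for a comparison of the set with other promoters. The sequence upstream of each of the 4 start sites is printed 5′ to 3′ on the gene's strand, up to the first base of an annotated GENCODE exon of the gene, because these windows show how differently the 4 promoters are built. Capitals mark matches to AP-1 (TGANTCA), CRE (TGACGTCA), STAT (TTCNNNGAA), IRF (GAAANNGAA), TEAD (GGAATG), ETS (CCGGAAGT), the E-box (CACGTG), the TATA box (TATAAA) or the NF-kB site, searched on both strands. The GC box (GGGCGG) was searched but is not capitalised. The stretches are chr12:49961622-49961869 (plus strand) for AQP5, chr22:50545649-50545890 (plus strand) for KLHDC7B, chr6:31571849-31572053 (plus strand) for LTA and chr17:3557996-3558062 (minus strand) for TRPV3.
AQP5: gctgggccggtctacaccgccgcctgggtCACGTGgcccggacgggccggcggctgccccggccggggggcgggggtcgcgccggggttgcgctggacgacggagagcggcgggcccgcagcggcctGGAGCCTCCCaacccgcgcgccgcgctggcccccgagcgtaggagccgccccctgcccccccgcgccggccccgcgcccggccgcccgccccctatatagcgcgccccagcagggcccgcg
KLHDC7B: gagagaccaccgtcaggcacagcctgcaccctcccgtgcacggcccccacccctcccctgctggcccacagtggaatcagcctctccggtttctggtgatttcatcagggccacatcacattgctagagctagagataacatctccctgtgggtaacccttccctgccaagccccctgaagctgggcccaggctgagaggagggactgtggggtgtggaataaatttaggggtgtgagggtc
LTA: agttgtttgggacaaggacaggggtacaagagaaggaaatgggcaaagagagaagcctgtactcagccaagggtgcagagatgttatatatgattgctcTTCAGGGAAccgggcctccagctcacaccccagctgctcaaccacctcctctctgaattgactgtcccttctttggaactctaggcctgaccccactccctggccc
TRPV3: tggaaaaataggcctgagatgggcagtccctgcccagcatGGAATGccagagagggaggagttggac

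The AQP5 window of 250 bases was 84.4% G and C, above the upper quartile of all 20021 promoter windows (70.4%), with a CpG observed to expected ratio of 0.93. It held an E-box, a sequence found in 7.39% of all windows, and an NF-kB match, found in 11.4%. The KLHDC7B window was at 60.4% G and C with a CpG ratio of 0.18, below the lower quartile of 0.346, and none of the listed letters was in it. The LTA stretch printed above held 1 STAT match, a sequence in 6.01% of windows. A second RefSeq window of LTA, which lies almost wholly inside the annotated gene and is not printed beyond the bases it shares with the first, held a TATA box (8.82% of windows) and overlapping NF-kB matches. The printed TRPV3 stretch held a TEAD match (10.4% of windows), and the rest of its window, inside the annotated gene, held an AP-1 match (5.32% of windows) and an E-box. A match is a description of letters and not of binding.

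Over the 11 genes, a parent library held 14 to 16 reads in all and an ADRr library 534 to 616. The 33 parent values comprised 8 zeros, 11 values of 1, 7 of 2 and 7 of 3, so no member was without reads in all 3 parent libraries, and 5 members had a read in each of them. "Switched on" is thus a matter of thresholds rather than of complete absence. All 11 members passed the low-count filter and were called higher in ADRr cells by edgeR (adjusted p up to 0.05, with a change of 1.2-fold or more). Among tested protein-coding autosomal genes 30.4% were called higher and 31.9% lower, and among all 15242 tested genes 29.2% higher and 29.6% lower. Because the rule used the same counts, nothing is read from the members' share.

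The ratio between groups was computed from summed counts per effective library size, with an exact 95% interval that covers counting error only. A second, more cautious ratio assigned each parent library the full 3 reads that the rule allows. This ratio ran from 8.97 (TRPV3) to 29.4 (FER1L6). The plain ratios ran from 13.5 to 142 with a median of 37.5, and the lower interval end reached 10 in 8 of the 11 genes. The order of neighbouring genes in the ratio plot is not resolved, since their intervals overlap throughout.

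**Figure D1:**
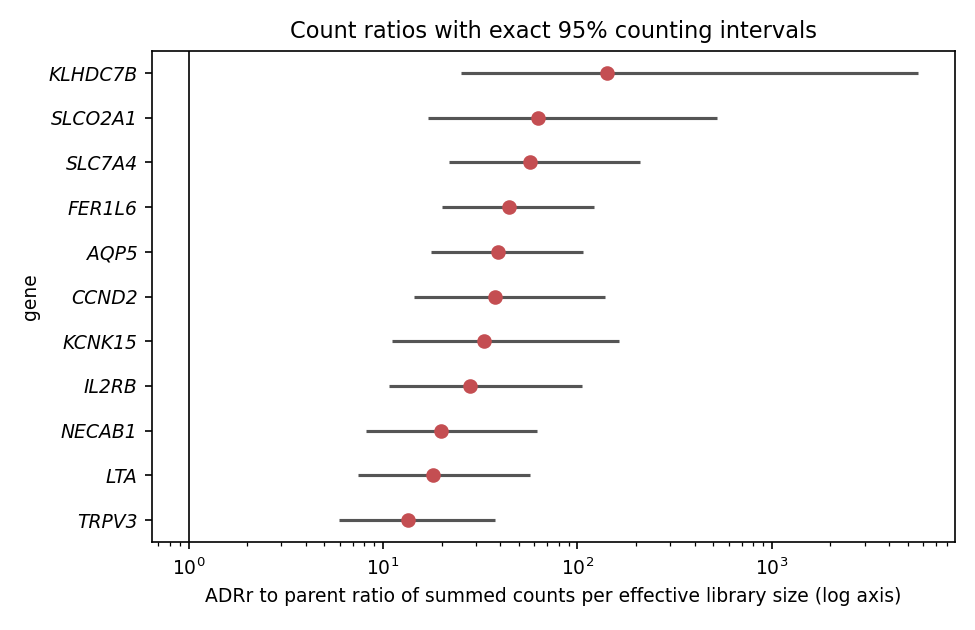
Ratio of ADRr to parent counts for each gene (point) with its exact 95% counting interval (line) on a log axis; the vertical line marks a ratio of 1. The widest interval belongs to KLHDC7B, with 1 parent read in all, and the lowest interval end is 5.93, for TRPV3.

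Among the channels and transporters, AQP5 (ENSG00000161798, chr12:49961870-49965681, plus strand), a water channel of secretory glands, held 1, 2 and 3 reads in parent replicates 1 to 3 and 92, 78 and 75 in ADRr replicates 1 to 3. The ratio was 38.8 (17.6 to 107). At 2.43 ± 0.267 FPKM (SD, n = 3) in ADRr cells it had the highest length-corrected level of the set. No exon of another annotated gene overlapped it.

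KCNK15 (ENSG00000124249, chr20:44745780-44752313, plus strand), a tandem-pore potassium channel gene, held 0, 0 and 3 reads in parent and 36, 33 and 36 in ADRr libraries. The ratio was 33.2 (11.1 to 164), and all parent reads came from replicate 3. Without that library the parent group held no read. With 3 reads in each parent library the ratio was 11.1. Its ADRr libraries were the most alike of the set, with a coefficient of variation of 1.37%. Exons on the opposite strand (RIMS4, with no read, and KCNK15-AS1) shared 21.7% of its exon bases.

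TRPV3 (ENSG00000167723, chr17:3510502-3557995, minus strand), a warm-sensitive cation channel of skin keratinocytes, held 2, 3 and 1 reads in parent and 29, 28 and 28 in ADRr libraries. The ratio was 13.5 (5.93 to 37.7). It had the lowest level of the set, 0.162 ± 0.00879 FPKM (SD, n = 3), with ADRr libraries that hardly differed.

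SLC7A4 (ENSG00000099960, chr22:21028718-21032840, minus strand), grouped by sequence with the cationic amino acid transporters, held 1, 2 and 1 reads in parent and 67, 84 and 88 in ADRr libraries. The ratio was 56.8 (21.9 to 210), and the lowest ADRr library stood 33.5 times above the highest parent library in raw counts. Its 3′ end overlaps P2RX6 on the opposite strand by 113 exon bases, 4.62% of its exons. P2RX6, an ATP-gated channel gene, held 87, 105 and 145 reads in parent and 181, 188 and 162 in ADRr libraries. Whether counting used strand is not given in the sources used here, so reads in the shared bases cannot be told apart.

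SLCO2A1 (ENSG00000174640, chr3:133928145-134052184, minus strand), the prostaglandin transporter, held 1, 1 and 0 reads in parent and 58, 27 and 47 in ADRr libraries. The ratio was 62.7 (17.0 to 523), and it was 40.7 without parent replicate 3. With 3 reads in each parent library it was 13.9. ADRr replicate 2 was lower than the others, and the spread passed sampling noise (chi-square of 4.25 per degree of freedom, unadjusted p under 0.05).

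In the cytokine group, IL2RB (ENSG00000100385, chr22:37125838-37175054, minus strand), the beta chain shared by the receptors for IL2 and IL15, held 3, 0 and 1 reads in parent and 35, 52 and 31 in ADRr libraries. The ratio was 28.0 (10.7 to 105), with 74.8 without parent replicate 1 and 19.2 without parent replicate 2. LTA (ENSG00000226979, chr6:31572054-31574324, plus strand), lymphotoxin alpha, a secreted ligand of the TNF receptors, held 3, 0 and 2 reads in parent and 25, 31 and 39 in ADRr libraries. The ratio was 18.0 (7.47 to 56.9), with 30.1 without parent replicate 1 and 12.3 without parent replicate 2. In both genes the rule itself set the ADRr libraries apart from the parent ones, and neither shares an exon base with another gene.

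CCND2 (ENSG00000118971, chr12:4273772-4305350, plus strand), cyclin D2, a partner of CDK4 and CDK6, held 0, 3 and 1 reads in parent and 39, 53 and 66 in ADRr libraries. The ratio was 37.5 (14.4 to 139), with 103 without parent replicate 2 and 25 without parent replicate 1. At 0.412 ± 0.102 FPKM (SD, n = 3) it stayed far under the other D-type cyclins. A gene model on the same strand, AC008012.1, shares 13.8% of its exon bases and held no read.

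FER1L6 (ENSG00000214814, chr8:123851987-124120061, plus strand), of the ferlin family of calcium-binding membrane proteins, had the most reads of the set. It held 2, 1 and 3 reads in parent and 85, 85 and 109 in ADRr libraries, a ratio of 44.2 (20 to 121). NECAB1 (ENSG00000123119, chr8:90791550-90959408, plus strand), an EF-hand calcium-binding protein known from neurons, held 2, 2 and 1 reads in parent and 21, 47 and 36 in ADRr libraries, a ratio of 19.8 (8.2 to 62.1). Its ADRr libraries varied most, with a coefficient of variation of 42.6%. On the opposite strand, exons of TMEM64 (1001 to 1201 reads per library) share 1.3% of the NECAB1 exon bases. Exons of C8orf88 (0 to 4 reads per library) share 6.15%. Together they cover 7.44%, and reads there cannot be told apart without strand. The antisense gene AC103770.1, which lies across NECAB1 and shares no exon base with it, held 0, 0 and 0 reads in parent and 15, 17 and 22 in ADRr libraries. KLHDC7B (ENSG00000130487, chr22:50545891-50551023, plus strand), a kelch-domain protein, held 1, 0 and 0 reads in parent and 47, 42 and 61 in ADRr libraries. The ratio was 142 (25.2 to 5660), but it rests on 1 parent read in replicate 1, without which the parent group held no read. With 3 reads in each parent library it was 15.8.

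The levels reached in ADRr cells were low. Mean levels per gene length ran from 0.162 to 2.43 FPKM, whereas the quartiles of tested protein-coding autosomal genes were 1.94, 6.06 and 14.5 FPKM. Except for AQP5, at the 29 percentile, all lay below the lower quartile. A reverse set, 17 genes with at least 20 reads in each parent and at most 3 in each ADRr library, spanned 1.36 to 28.7 CPM in parent cells with a median of 2.63 CPM. The members spanned 1.62 to 5.29 CPM in ADRr cells with a median of 2.48 CPM. The medians were thus close, while 5 reverse genes exceeded FER1L6, the highest member at 5.29 ± 0.616 CPM (SD, n = 3).

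**Figure D2:**
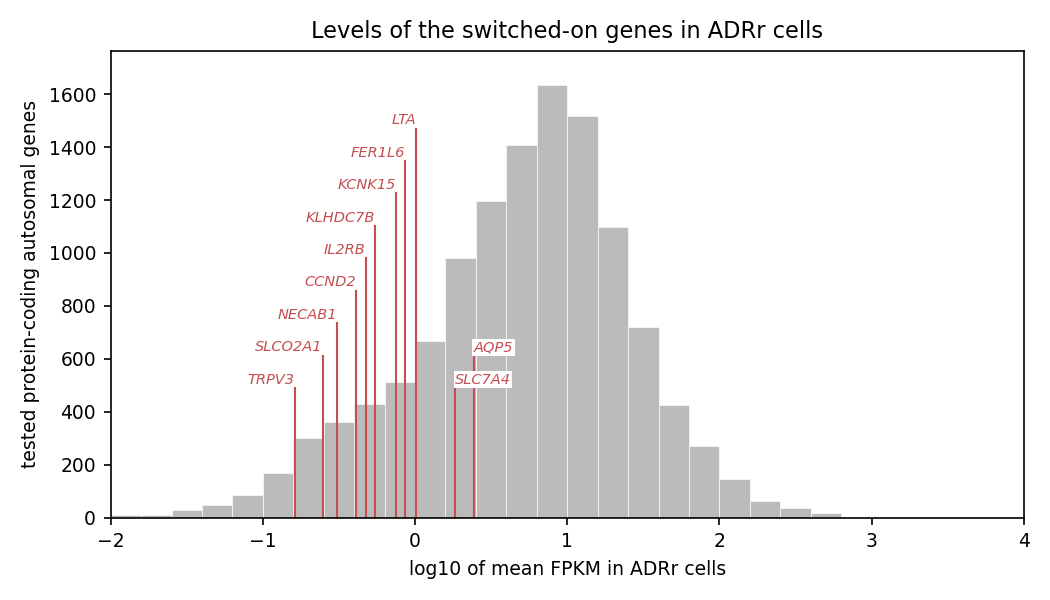
Histogram of log10 mean FPKM in ADRr cells over tested protein-coding autosomal genes (grey), with the 11 genes as red lines whose heights only separate the names. Of the 11, 10 lie below the lower quartile of 1.94 FPKM.

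The coefficient of variation between ADRr libraries was 1.37 to 42.6%, with a median of 16.2%. Among 1141 tested genes of like counts, the quartiles were 10.2, 15.4 and 22.4%. For CCND2, SLCO2A1, IL2RB and NECAB1 the spread passed sampling noise (chi-square p under 0.05, 2 degrees of freedom). This p was not adjusted over the 11 genes, and the rule had used the same counts. The libraries that were low differed between these genes (replicate 1 for CCND2 and NECAB1, replicate 2 for SLCO2A1, replicate 3 for IL2RB).

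The thresholds cut through a continuum. Just inside, the lowest ADRr minima belonged to NECAB1 (21), LTA (25) and SLCO2A1 (27). Just outside were CATSPERG with 20, 25 and 19 ADRr reads, SYT14 with 24, 19 and 31, and DAPP1 with 19, 26 and 33 and no parent read. A parent maximum of 4 excluded 7 genes, among them GMFG (1, 3 and 4 parent and 193, 152 and 178 ADRr reads), ALOXE3 (3, 3 and 4 parent and 130, 117 and 145 ADRr reads) and GYPC (1, 0 and 4 parent and 113, 136 and 114 ADRr reads). These last 3 had more ADRr reads than any member. Most silent genes stayed silent, since 5492 eligible genes held at most 3 reads in each parent library and 5039 of them also did in each ADRr library.

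The rule did not use the genes beside the members. Within 100 kb of a member's gene body lay 44 tested protein-coding genes. Of these, 14 were called higher (31.8%, exact interval 18.6 to 47.6%) and 13 lower (29.5%, 16.8 to 45.2%), and their median log2 fold change was -0.03. Over all tested protein-coding autosomal genes, 30.4% were called higher and 31.9% lower, with a median of -0.02. The pooled shares beside the members were thus near those of the background. KLHDC7B and LTA supplied 11 of the 44 neighbours each. Of the 14 higher calls 5 lay beside KLHDC7B, and of the 13 lower calls 7 lay beside LTA. For the reverse set, 5 of 28 neighbours were called higher (17.9%) and 18 lower (64.3%), with a median of -0.53.

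With the nearest tested gene on each side of a member at any distance, 12 of 22 were called higher (54.5%, exact interval 32.2 to 75.6%) and 1 lower (4.55%), with a median of 0.46. These genes lay 0 to 473 kb away with a median of 17.0 kb. In the reverse set, 10 of 34 such genes were called higher (29.4%) and 17 lower (50%). The members' share was not tested against the background, and neighbouring genes are not independent replicates.

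The neighbour with the largest fold change lay beside KLHDC7B. ADM2, adrenomedullin 2, a peptide hormone gene 59.5 kb away, held 81, 82 and 118 reads in parent and 1017, 1062 and 1104 in ADRr libraries (log2 fold change 3.43 ± 0.11 SE, adjusted p = 1.6e-17, edgeR). TYMP, thymidine phosphorylase, 15.8 kb away, held 149, 130 and 182 reads in parent and 615, 590 and 585 in ADRr libraries (1.89 ± 0.1 SE, adjusted p = 3e-13, edgeR). ODF3B, which overlaps TYMP, rose by 1.39 and MAPK8IP2, a scaffold of the JNK pathway, by 1.42 on the log2 scale. Of the 11 tested neighbours here, 5 were called higher and 1, NCAPH2, lower (-0.87). The background shares were 30.4% higher and 31.9% lower, and no single locus was tested against them.

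Beside LTA, LTB, lymphotoxin beta, lies 6.2 kb away on the opposite strand. It held 49, 53 and 60 reads in parent and 366, 387 and 426 in ADRr libraries (log2 fold change 2.79 ± 0.13 SE, adjusted p = 1.9e-14, edgeR). NFKBIL1, on the other side, rose by 0.55. The other calls within 100 kb went the other way, with 7 of the 11 tested neighbours lower, led by LY6G5B at -1.52. The background share called lower was 31.9%, and the difference was not tested.

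Near IL2RB, C1QTNF6 rose by 0.54 on the log2 scale. TMPRSS6, a membrane serine protease, rose by 1.28 with few reads (7 to 13 in parent and 16 to 31 in ADRr libraries), and the call was lost without ADRr replicate 2 (adjusted p = 0.069, edgeR). MPST fell by 0.32, a call lost without parent replicate 3 (-0.23). Near TRPV3, CTNS, the lysosomal cystine exporter, rose by 1.18, whereas TRPV1, its nearest tested gene at 7.45 kb, gave -0.3 and did not pass the test.

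Beside the other members the calls went both ways. Next to AQP5, RACGAP1, a regulator of cytokinesis, fell by 0.96 and ASIC1, an acid-sensing ion channel, by 1.14. Beside SLC7A4, AIFM3 fell by 1.15, THAP7 by 0.62, and P2RX6 rose by 0.59. RYK beside SLCO2A1 rose by 0.31, and FAM91A1 beside FER1L6 by 0.3, which was 0.24 and under the fold threshold without parent replicate 3. The 4 tested neighbours of CCND2, KCNK15 and NECAB1 were not called. TIGAR, 2.41 kb from CCND2, gave 0.8 with an adjusted p of 0.054 by edgeR, ADA near KCNK15 gave 0.21, and TMEM64 (-0.15) and PIP4P2 (-0.04) near NECAB1 were under the fold threshold.

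Relatives of the members, listed by gene family after the members were known, put them in context. For the receptors of IL2 and IL15, IL2RG, the common gamma chain that pairs with IL2RB, held 4, 3 and 9 reads in parent and 115, 83 and 121 in ADRr libraries (log2 fold change 4.21 ± 0.32 SE, adjusted p = 9.3e-11, edgeR). IL15RA, the private chain for IL15, rose by 0.72, from 7.38 to 12.2 FPKM. IL2RA and the ligand IL2 held no read in any library. IL15 was at 0.643 FPKM in parent and 0.715 FPKM in ADRr cells and did not pass the test. Of the kinases and transcription factors that act under this receptor, JAK1 (0.32) and STAT5A (0.55) rose, JAK3 fell by 1.6 and STAT5B did not pass.

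For the lymphotoxins, TNFRSF1B, a receptor of TNF and lymphotoxin alpha, rose from 6.72 to 32.5 FPKM (log2 fold change 2.27 ± 0.07 SE, adjusted p = 1.4e-17, edgeR). TNFRSF14, which also binds lymphotoxin alpha, rose by 1.05. TNFRSF1A fell by 0.63, from 30.7 to 19.9 FPKM. LTBR, the receptor of the membrane-bound complex of LTA and LTB, was at 18.5 FPKM in parent and 19.4 FPKM in ADRr cells and did not pass. TNF itself was below the filter, with 1 to 14 reads in parent and 2 to 6 in ADRr libraries. LTA at 1.02 FPKM was thus well under LTB at 14.3 FPKM in ADRr cells.

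**Figure D3:**
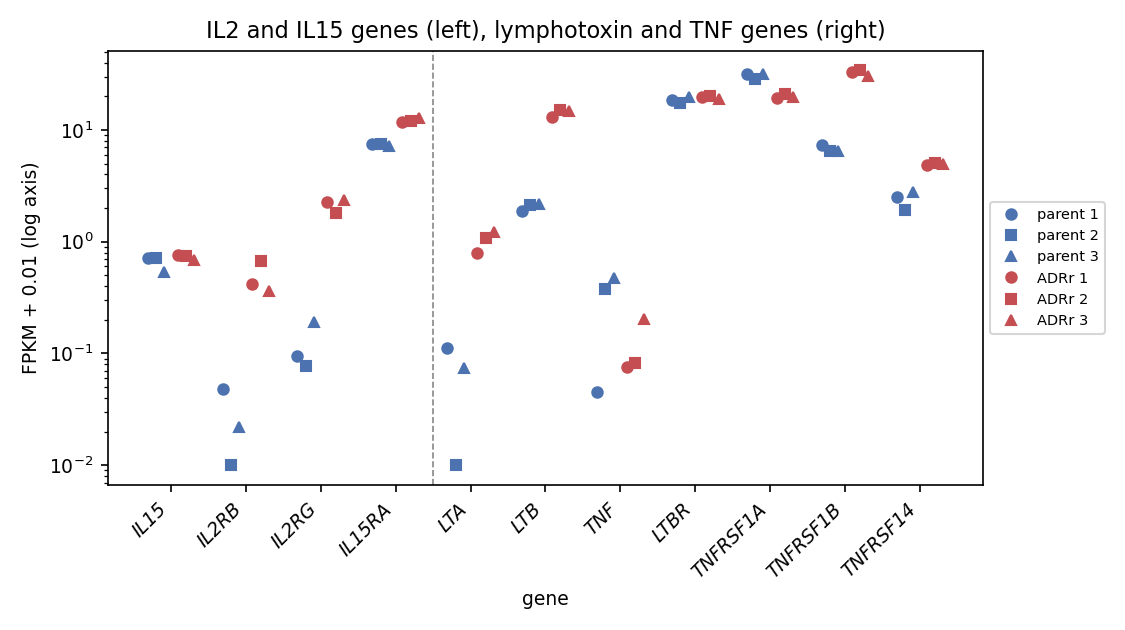
FPKM plus 0.01 on a log axis for each library, parent in blue and ADRr in red, for genes of the IL2 and IL15 system (left of the dashed line) and of the lymphotoxin and TNF system (right). IL2 and IL2RA are not drawn because they were at 0 in every library. The groups do not overlap for IL2RG, IL15RA, LTB, TNFRSF1A, TNFRSF1B and TNFRSF14. How many of all genes separate in this way was not counted, and of all tested genes 29.2% were called higher and 29.6% lower. For IL2RB and LTA the rule itself set the groups apart.

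Among the D-type cyclins, CCND1 stood at 133 FPKM in parent and 111 FPKM in ADRr cells. Its log2 fold change of -0.26 was just under the fold threshold and crossed it without replicate 2 of either group. CCND3 fell by 1.01, from 34.2 to 17.1 FPKM. CCND2, which the rule chose by its counts, remained the lowest of the 3 in level.

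Of the other SLC7 amino acid transporters 6 were tested, 4 were called higher and 1 lower. The background shares were 30.4% higher and 31.9% lower, and no family was tested against them. SLC7A11, the cystine carrier of system xc-, rose by 1.52, SLC7A2 by 0.74, SLC7A5 by 0.49 and SLC7A1 by 0.43 on the log2 scale. SLC7A7 fell by 0.59, a call lost without ADRr replicate 1 (adjusted p = 0.052, edgeR). Of the other organic anion transporters 4 were tested. SLCO4A1 held 60, 36 and 56 reads in parent and 493, 385 and 485 in ADRr libraries and rose by 3.09, and SLCO2B1 rose by 3.19 from 8, 1 and 4 reads to 32, 56 and 39. SLCO1B3 fell by 2.39 and SLCO3A1 by 0.37.

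The remaining families gave few tested relatives. Of the ferlins, DYSF, dysferlin, rose by 1.43, and MYOF, myoferlin, at 0.19 was under the fold threshold. Among the aquaporins, AQP3 fell by 0.62, AQP11 did not pass, and 8 of the 12 relatives of AQP5 held at most 3 reads in every library. Of the tandem-pore potassium channels, KCNK12 rose by 2.57 from 0, 7 and 1 reads to 14, 21 and 17, and KCNK6 rose by 0.41. KCNK2 was called lower (-1.08), but the call was lost with DESeq2 (adjusted p = 0.092), with a block for the replicate number (adjusted p = 0.066, edgeR) and without parent replicate 3 (adjusted p = 0.25, edgeR). TRPV2 rose by 1.86 with at most 19 reads in a library. Among the kelch proteins KLHDC1 (1.18) and KLHDC2 (0.34) rose, while KLHDC8B fell by 1.79, KLHDC3 by 1.12 and KLHDC10 by 0.4. NECAB3, at -0.25, was just under the fold threshold and crossed it without parent replicate 1, parent replicate 2 or ADRr replicate 2.

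None of 12 hand-written lists of lineage markers and signalling targets held a member. The lists were written with earlier results of these data known, so this absence says nothing about the members. Calls in the lists show what moved alongside. Of 35 matched NF-kB targets, 29 were tested, 22 rose and 6 fell, with a median log2 fold change of 1.13. IL1A (5.23) and CCL5 (4.12) rose most and TNFAIP2 fell most (-1.09). Of the interferon-stimulated genes 32 were tested, 24 rose and 2 fell, with CXCL11 (3.51) and RSAD2 (2.99) at the top and TRIM22 (-2.59) at the bottom. Of the genes downstream of AP-1 and ERK 28 were tested, 21 rose and 0 fell by edgeR, and 0 fell by DESeq2. SPRED1, at -0.22 (adjusted p = 0.012, edgeR), missed only the fold threshold. It was called lower without parent replicate 3 or ADRr replicate 1. MMP1 (7.35) and MMP9 (4.05) rose most. The median over all tested protein-coding autosomal genes was -0.02, with 30.4% called higher and 31.9% lower. The lists were not tested against these shares.

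Calls in the lineage lists stand beside 30.4% higher and 31.9% lower over all tested protein-coding autosomal genes. No list was tested against these shares, and each held few tested genes. In the leukocyte list 6 genes were tested, CORO1A (1.27) and LAPTM5 (0.68) rose, and CSF1R fell by 1.31. In the endothelial list 5 were tested and 4 rose, led by ROBO4 (1.5) and ESAM (1.21). In the epithelial list 11 were tested, 5 rose, led by ESRP1 (3.57) and CLDN7 (1.36), and 5 fell, led by KRT8 (-2.0). In the fibroblast and smooth muscle list 5 were tested and 2 fell, led by PDGFRB (-2.9). In the neuronal list SNAP25 (2.87) and SYT1 (2.23) rose among 4 tested. In the homeobox list 11 were tested, 4 rose, led by HOXB7 (2.31) and HOXB9 (2.13), and 4 fell, led by NKX2-5 (-3.94). SERPINA1 (0.51) was the 1 tested hepatic gene and MAEL (1.13) the 1 tested germ cell gene, and both rose. The 1 tested gene of the erythroid and platelet list did not pass. The part of these shifts in the counts of the members was not tested.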

How the data were processed

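RNA of 6 libraries, 3 of parent and 3 of ADRr cells, was analysed from 2 deposited tables. The authors counted reads per gene with featureCounts 1.5.0-p3 after mapping with HISAT2 2.0.5, per the submitters' processing notes, which also list fastp, DESeq2 1.20.0 and GRCh38. The deposited raw counts are not normalized, and the FPKM values were computed by the authors from counts and gene length. The paper's methods and the labels describe the library preparation differently, and strandedness of counting is not given in the sources used here. Low counts limit the precision of every member, and intervals cover counting error only.

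Counts were fitted in R 4.3.3 with edgeR 4.0.16 (TMM, filterByExpr, quasi-likelihood test, Benjamini-Hochberg adjustment over 15242 genes, 43493 not tested), using no covariate. Calls needed an adjusted p no higher than 0.05 together with a 1.2-fold change or more. limma 3.58.1 and DESeq2 1.42.0 served as alternatives. On simulated counts for the same comparison, 200 genes among 15242 were changed 2-fold up or down, with the same noise set for every gene. edgeR recovered 87.0% and DESeq2 82.0% of them, and 2.25% and 0% of their calls were false. Far more genes were called in the data and smaller changes counted, so these rates do not describe the calls here. Count ratios were computed in Python 3.11.15 with scipy 1.17.1, with exact conditional binomial intervals at 95%. Shares carry exact Clopper-Pearson intervals. Exons are from GENCODE 29. Every member was named with its values, as were called neighbours within 100 kb whose log2 fold change was 1 or more in size, and per list the 2 top increases and the top decrease. Other neighbours and relatives were named after their values were seen. Members and lists were chosen with earlier results of these data known. The labels do not say whether replicate numbers shared between groups mark pairs. Genes left out by the rule's names, and some others, are not reported here.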

Additional observations from a re-analysis of the deposited data

How the results depend on the processing

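The numbers of genes called higher (4451) and lower (4507) were within 1.5 times under 16 of 17 alternatives. With a log2 fold change of at least 1.2 they were 1114 and 972, and 13.6% and 2.27% of the neighbours were then called higher and lower. Same-numbered libraries showed no shared deviation (correlations 0.00735, -0.0213 and -0.0457), which cannot show whether they were handled as pairs. A replicate block gave 4406 and 4464 calls and left 31.8% and 29.5% of neighbours called. Among the genes named here with a call, it changed that of KCNK2 and no other. The neighbours' median moved from -0.03 to 0.01 with limma on log2(FPKM + 1) without a filter, ran from -0.14 to 0.01 when 1 library was left out, and was 0.46 for the nearest gene on each side, of which 54.5% were higher and 4.55% lower. The cause of these shifts was not tested.

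The number of members depends on the thresholds. It was 25 at 10 reads, 3 at 50 reads, 2 at a parent maximum of 1 read, 0 at a parent maximum of 0 reads and 23 at 5. It was 6 on TMM-scaled counts, which left out CCND2, IL2RB, LTA, NECAB1 and TRPV3. It was 27 on group means and 12 to 17 without 1 library. These settings can only relax the rule, so that they held all 11 genes was fixed in advance. The reverse set had 33 genes at 10 reads, 6 at 50, 1 at a maximum of 0 reads, 5 at a maximum of 1 and 32 on group means. The ratios of KLHDC7B and SLCO2A1 were 15.8 and 13.9 with 3 reads in each parent library. All 66 values without 1 library stayed inside their counting intervals. For KLHDC7B without parent replicate 1 and KCNK15 without parent replicate 3 no parent read remained. There the value is a bound against 3 reads over the remaining parent libraries and not a ratio. The alternatives for promoter windows were not run, since under 80% of the members have a window. Depth limits every parent value, since counts of 0 to 3 cannot rank the members.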

Other observations

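Outside the protein-coding autosomal genes, 7 genes met the same counts. The lincRNA AC034213.1 held no read in parent and 62, 43 and 66 in ADRr libraries, at least 54.1-fold higher against 3 reads over the group and 18 against 3 reads in each parent library. The lincRNA LINC01215 held no read in parent and 42, 43 and 25 in ADRr libraries, at least 34.8-fold higher by the first floor and 11.6 by the second. LINC00520 held 2, 0 and 1 parent and 49, 38 and 50 ADRr reads, a ratio of 43.4 (14.5 to 213). The processed pseudogene CBX1P3 held 0, 2 and 1 parent and 38, 38 and 26 ADRr reads, a ratio of 32.3 (10.7 to 159), and how reads of near-identical copies such as CBX1 were counted is not given in the sources used here.

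Within 100 kb of these 7 genes lay 13 tested protein-coding genes, of which 6 were called higher and 3 lower. Over all tested protein-coding autosomal genes 30.4% were called higher and 31.9% lower. The 13 were not tested against that share. GFPT2 near AC034213.1 rose by 0.87 and IFT57 near LINC01215 by 0.49, while CNOT6, MRPL42 and SNRPE fell by 0.38, 0.45 and 0.5 on the log2 scale. HHLA3 near AL354872.2 rose by 1.04, a call lost without parent replicate 1 (0.78), ADRr replicate 1 (0.99) or ADRr replicate 3 (0.94). SOCS2-AS1 (1, 0 and 3 parent and 23, 38 and 43 ADRr reads, ratio 24.7, 9.36 to 92.3) overlaps SOCS2, an inhibitor of cytokine signalling, which held 44, 48 and 40 reads in parent and 262, 232 and 276 in ADRr libraries (log2 fold change 2.46, adjusted p = 1.9e-12, edgeR). AL354872.2 (3, 0 and 1 parent and 37, 22 and 28 ADRr reads, ratio 20.7, 7.79 to 77.5) lies 5.22 kb from CTH, an enzyme of cysteine synthesis, which rose by 2.55 on the log2 scale. AL357033.1 (2, 2 and 3 parent and 25, 27 and 24 ADRr reads, ratio 10.3, 4.77 to 26.5) overlaps SLCO4A1, which rose by 3.09. Without known strand of counting, reads of the overlapping pairs cannot be told apart.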
